A study of Homo sapiens with 18 samples.

Results

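The comparison described here is that of A549 cells kept in sodium propionate (SP) for 12 days with A549 cells kept in SP for 3 days, which asks which early changes in transcript levels deepened, which faded and which appeared late. A549 is an established human lung adenocarcinoma line that carries features of a partial epithelial-to-mesenchymal transition (EMT). The members are 6 of the 18 RNA-seq libraries of the series, chosen by their labels: 3 libraries of cells given 5 mM SP for 12 days (SP 12 days, R1 to R3) and 3 of cells given 5 mM SP for 3 days (SP 3 days, R1 to R3). The 3 libraries of control cells without SP, taken at 3 days, serve as a reference level. No control at 12 days is part of the comparison, so 9 more days in SP and 9 more days in culture cannot be told apart. The labels do not say whether the libraries of a group came from separate cultures, and p-values then measure the spread between these libraries, which may be technical.

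Propionate is a short-chain fatty acid made by gut bacteria. Cells take it up through monocarboxylate transporters and convert it to propionyl-CoA, and short-chain fatty acids inhibit histone deacetylases, enzymes that take acetyl groups off histone tails. EMT is the loss of cell contacts and epithelial genes such as CDH1, which encodes E-cadherin, under transcription factors of the SNAI, ZEB and TWIST families, and its reversal restores junctions and epithelial splicing.

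The 9 libraries held between 15425281 and 21992046 reads counted on genes. In the 3 SP 12 days libraries the sum of the A549 and epithelial line markers (KRT8, KRT18, ALDH1A1 and others) was between 342881 and 454898 reads, and CDKN2A, which is deleted in A549, was at 0 reads in every library. Of 9 blood cell markers 2 passed the expression filter, with a sum of 278 to 394 reads in the control, 571 to 626 at SP 3 days and 254 to 609 at SP 12 days, nearly all from CD14, and CD3D, CD3E and MS4A1 were at 0. Of 6 endothelial markers 2 passed, with at most 54 reads in all. Of 8 fibroblast markers 5 passed, with 299 to 404, 1488 to 1793 and 1139 to 2099 reads, and COL1A2 was at 0. SP 12 days R3 stood apart from R1 and R2. The mean chi-square per gene, which is near 1 for sampling noise alone, was 19.37 and 30.81 between R3 and R1 or R2, against 3.10 between R1 and R2 and at most 9.85 in other pairs of one group. On the second principal component, with 6.67% of the variance of the 500 most variable genes, SP 3 days lay between -11.0 and -9.5, SP 12 days R1 and R2 at 13.6 and 15.4, and R3 at 2.6. R3 also had the highest mitochondrial share of reads (7.04%, other libraries 5.82% to 6.49%) and the most genes with a read (31350, others up to 29288). The part of these features in the differences of R3 was not tested. Counts, and values of genes that moved with it, are given with and without R3.

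A few genes changed strongly between 3 and 12 days, with the lowest adjusted p for the cell adhesion genes CEACAM5 and CEACAM6, and many changed by less. Of 17775 genes tested, 27 were called higher at 12 days (0.152%) and 5 lower (0.0281%), where a call is an adjusted p under 0.0001 from edgeR's quasi-likelihood test with a fold change of at least 2. All 32 had no overlap between the SP 12 days and the SP 3 days libraries, which held for 13.9% (higher) and 12.9% (lower) of all genes tested. At an adjusted p under 0.05 without a fold limit, 792 genes were higher (4.46%) and 648 lower (3.65%). Without R3, 104 genes were called higher (0.576%) and 196 lower (1.08%), and 2456 (13.6%) and 2617 (14.5%) passed an adjusted p of 0.05. Of the 32 called genes 31 were also called without R3, and EHF was not (0.92 on the log2 scale). DESeq2 called 66 higher and 29 lower. Each of the 32 genes kept an adjusted p under 0.05 when any 1 of the 9 libraries was left out, and 6 stayed called each time, among them CEACAM5, CEACAM6, PRSS22, ANPEP and DHRS2. In bulk RNA, a fall in the number of cells that express a gene and a fall in RNA per cell cannot be told apart.

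The early changes were sorted by what followed. Of the 1169 genes called higher at 3 days against the control (6.58% of genes tested), 8.98% rose further by 12 days (adjusted p under 0.05 between the times), 13.69% (160 genes) fell back and 904 did not pass the test between the times. Of the 331 called lower at 3 days (1.86%), 24 fell further, 36 rose back and 271 did not pass. Over all genes tested, 4.46% were higher and 3.65% lower at 12 than at 3 days at that threshold. Among the 160 that fell back, 88 were still called higher than the control at 12 days and 5 no longer passed an adjusted p of 0.05 against it. Their median log2 change against the control went from 1.93 to 1.28, and that of the genes that rose further from 1.80 to 2.84. The SP 3 days libraries enter both contrasts, so choosing genes that are high in them favours a later fall. When genes were chosen as called at 12 days instead, 254 of 1223 higher genes had risen from 3 to 12 days and 88 had fallen, the opposite order, so which of deepening or fading was more frequent depends on the choice. Without R3, 197 of 1576 genes called higher at 3 days rose further (12.5%) and 620 fell back (39.3%). Of 507 called lower, 82 fell further (16.2%) and 94 rose back (18.5%). Over all genes tested without R3, 13.6% were higher and 14.5% lower, so the share that rose further was not above that of all genes. Late changes, with no call and an adjusted p of at least 0.05 at 3 days, a change between the times and a call at 12 days, were found in 27 higher and 7 lower genes.

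For the 1175 genes that did not pass between the times, the median standard error was 0.15 on the log2 scale, and the 95% interval of the change lay within 2-fold for 1012 of them. CDH1 was one of these, with 2748, 2923 and 2829 normalised counts in the control, 7069, 7321 and 7804 at SP 3 days and 6517, 6422 and 6952 at SP 12 days. The 12 days libraries all lay below the 3 days libraries and well above the control, and the change between the times was -0.16 ± 0.08 (SE) on the log2 scale (adjusted p = 0.224, without R3 -0.21 and 0.0276). OVOL2 and GRHL1, transcription factors that maintain epithelial cells, changed by 0.16 ± 0.23 and -0.16 ± 0.20.

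Libraries of the second experiment (control 24 h, SP 3 h, SP 24 h) choose early genes without the SP 3 days libraries. Of 107 genes called higher at 24 h and tested here, 25 (23.4%) fell from 3 to 12 days and 4 (3.7%) rose. Over all genes tested, 3.65% were lower and 4.46% higher. The median log2 change of the 107 was -0.28, against 0.00 over all genes tested. Without R3 the numbers were 63 and 10 of 107, with a median of -0.43 (all genes tested: 14.5% lower, 13.6% higher, median -0.02). Among those that fell were NES, a neural progenitor intermediate filament, with 555, 592 and 601 normalised counts at SP 3 days and 321, 286 and 368 at SP 12 days, chosen after its values were seen. EPCAM, NEFL, ADGRE2 and PADI2 were the 4 that rose, a share near that over all genes tested. Of 11 genes called lower at 24 h, AVEN, TP53I3 and ADI1 rose from 3 to 12 days and ST6GAL2 fell further. Same-numbered control and SP libraries at 24 h varied together (correlations of residuals 0.50, 0.17 and 0.50), and with replicate number as a block only 2 genes (H19 and NGFR) were called higher at 24 h, neither of which passed the test between 3 and 12 days. Chosen by DESeq2 at 24 h, an alternative added after seeing the data, 993 higher genes had a median of -0.23, with 160 falling and 44 rising. The 44 are also near the share over all genes tested.

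The genes that rose late or rose further include some that are expressed at the epithelial surface, though other lists of epithelial genes did not follow. CEACAM5 (ENSG00000105388, GRCh38 chromosome 19, 41708585 to 41730433, plus strand) encodes carcinoembryonic antigen, a cell surface adhesion protein used as a tumour marker. It held 59.3, 57.4 and 74.3 normalised counts in the control, 81.0, 73.3 and 94.6 at SP 3 days and 1085, 1238 and 1710.4 at SP 12 days. The 12 days libraries were all far above the others, with R3 the highest. The log2 change between the times was 4.02 ± 0.18 (SE; 16.2-fold, adjusted p = 3.39e-08), and that at 3 days against the control was 0.39 (adjusted p = 0.155).

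CEACAM6 (ENSG00000086548, chromosome 19, 41750977 to 41772211), its neighbour with the same orientation, encodes a related protein anchored to the membrane by a lipid. It held 5947, 5468 and 6528 normalised counts in the control, 5848, 6533 and 7094 at SP 3 days and 21445, 22139 and 22309 at SP 12 days. The control and SP 3 days libraries overlapped, and the 12 days libraries lay close together above them (log2 change between the times 1.76 ± 0.09, adjusted p = 3.95e-08). Of 5 CEACAM genes tested, these 2 rose, and no other passed the test (all genes tested: 4.46% higher, 3.65% lower). Without R3, 2 of 6 were higher and 1 lower (all genes tested: 13.6% and 14.5%). CEACAM1, CEACAM16 and CEACAM19 changed by 0.43 ± 0.31, 0.13 ± 0.38 and -0.21 ± 0.11, and CEACAM1 held 1828 normalised counts in R3 against 899.5 and 776 in R1 and R2. CEACAM5 and CEACAM6 share 139 and 138 bases of exons with another gene, and reads of near-identical family members could have been split between them.

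The promoters of these neighbours are shown because both genes moved from a control level to a high level in the same interval, beside that of DHRS2, which moved the other way. Each is 300 bases of RefSeq sequence on GRCh38.p14, from 250 before to 50 after the start, plus strand: CEACAM5 at chr19:41708376-41708675, CEACAM6 at chr19:41755280-41755579 and DHRS2 at chr14:23629865-23630164. The CEACAM6 stretch lies inside the gene interval given above (41750977 to 41772211), so its RefSeq start is not the first base of that interval. Capitals mark matches to the E-boxes CACGTG and CAGGTG (or CACCTG, its other strand) and to the GC box GGGCGG (or CCGCCC), searched on both strands.
CEACAM5: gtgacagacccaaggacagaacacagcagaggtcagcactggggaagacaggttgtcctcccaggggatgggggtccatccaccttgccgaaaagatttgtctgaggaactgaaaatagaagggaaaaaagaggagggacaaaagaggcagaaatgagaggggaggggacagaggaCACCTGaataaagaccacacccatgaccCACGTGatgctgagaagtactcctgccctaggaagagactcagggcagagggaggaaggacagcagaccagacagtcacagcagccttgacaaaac
CEACAM6: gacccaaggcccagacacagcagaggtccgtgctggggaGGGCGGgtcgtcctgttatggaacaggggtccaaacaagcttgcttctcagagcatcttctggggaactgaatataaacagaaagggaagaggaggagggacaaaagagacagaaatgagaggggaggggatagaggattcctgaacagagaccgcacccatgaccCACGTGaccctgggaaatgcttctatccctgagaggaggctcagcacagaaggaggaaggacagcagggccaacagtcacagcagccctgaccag
DHRS2: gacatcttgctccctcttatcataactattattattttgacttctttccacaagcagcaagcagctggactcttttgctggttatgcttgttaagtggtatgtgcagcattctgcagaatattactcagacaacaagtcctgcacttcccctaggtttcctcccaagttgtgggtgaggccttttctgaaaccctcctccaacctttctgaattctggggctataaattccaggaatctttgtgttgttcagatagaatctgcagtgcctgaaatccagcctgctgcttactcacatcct
CEACAM5 and CEACAM6 were identical at 236 of 289 aligned bases (81.7%), and each held 1 CACGTG near its start, which 7.4% of 27303 RefSeq promoters of this length hold. CEACAM5 also held 1 match to CAGGTG (20.6% of promoters) and CEACAM6 1 GC box (44.6% of promoters), and DHRS2 held none of the 3. A match is a description of these letters and not a sign of binding.

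ESRP1, a splicing regulator that sets epithelial exon choice, held 5.15, 3.38 and 3.19 normalised counts in the control, 49.3, 62.4 and 61.2 at SP 3 days and 208, 202 and 286 at SP 12 days. It rose in 2 steps without overlap, and the second was 2.01 ± 0.18 on the log2 scale (adjusted p = 1.07e-05). EPCAM, the epithelial cell adhesion molecule (chromosome 2, 47345158 to 47387601), followed the same order with 161, 180.1 and 189, then 447, 488 and 420.2, then 887, 807 and 1192 (log2 change between the times 1.09 ± 0.13, adjusted p = 0.000144, which misses the threshold for a call). PRSS22, an epithelial serine protease, rose by 1.79 ± 0.13 to 369, 364 and 394 normalised counts. MAL2, which works in transport to the apical membrane, rose by 1.90 ± 0.19, and the tetraspanin TSPAN1 by 1.60 ± 0.16.

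EHF, an epithelial ETS factor, had moved the other way at first. It held 950.0, 1009 and 971 normalised counts in the control, 597, 582 and 604 at SP 3 days and 1155, 1112 and 1383 at SP 12 days, so that the libraries fell below and then rose above the control without overlap (log2 change between the times 1.04 ± 0.09, adjusted p = 1.07e-05).

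The other called genes had mixed roles. DPYSL3, a cytoskeletal protein of neuronal outgrowth, held 1443, 1626 and 1827 normalised counts at SP 3 days and 3581, 3458 and 3521 at SP 12 days, above 1019.7 to 1186 in the control (1.11 ± 0.09). PKIB, an inhibitor of protein kinase A, rose from 142, 196 and 139.7 to 428, 416 and 449, and the vesicle tether SYTL2 from 1071, 1010.4 and 1019 to 2386, 2164 and 1855. Both had been above the control at 3 days. GASK1B and the antisense RNA GAS6-AS1 rose by 1.07 each, with an adjusted p of 0.148 and 0.229 at 3 days. They share 1040 and 483 bases of exons with other genes.

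ZBED2, a zinc finger transcription factor, went from 1.13 to 3.44 normalised counts in the control to 29.6, 27.4 and 34.4 and then to 181, 149 and 101. DCLK1, a microtubule-associated kinase, rose by 1.88, TMEM154 by 1.09 and the noncoding RNA LINC00665 by 1.81, while LINC02532 fell by 1.56 to 63.6, 43.9 and 80.4 after 199, 162 and 197. In ZBED2, DCLK1 and LINC00665, R3 was the lowest SP 12 days library, though above SP 3 days. ALDH1A3, which makes retinoic acid, was not called but rose by 1.39 ± 0.26, with 915, 1169.7 and 507 after 349, 344 and 297.

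Of 24 integrin and laminin chains 5 were higher, among them ITGB8 (0.65), LAMB3 (0.50), ITGA2 (0.43) and ITGA6 (0.38), and the median of the list was -0.08. Without R3, 6 were higher and 5 lower. The backgrounds were 4.46% higher and 3.65% lower, and 13.6% and 14.5% without R3.

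Not all epithelial genes moved late. For the counts that follow, 4.46% of all genes tested were higher and 3.65% lower, and 13.6% and 14.5% without R3. Of 16 tested epithelial transcription factors and splicing regulators, 8 of which had been lower than the control at 3 days and 4 higher, 4 rose, among them ESRP1, EHF and GRHL3 (1.15), with a median of 0.12 over the list. Without R3, 4 were higher and 4 lower, with a median of -0.05. Of 10 airway secretory and ciliated genes, FOXJ1 (-1.71) and CYP2F1 (-1.03) were lower, and without R3 1 was higher and 7 lower (median -0.46, and -1.20 without R3). Of 13 mucins and trefoil factors MUC13 (-0.53) was lower, and without R3 1 was higher and 6 lower (median 0.18, and -0.35 without R3). Of 7 kallikreins and epithelial serine proteases KLK10 (0.89) was higher, and without R3 1 of 8 was higher and 2 lower. Of 30 tested genes of epithelial adhesion and junctions, 9 were higher at 12 days and 0 lower in edgeR, with a median of 0.10 (0.00 over all genes tested). At an unadjusted p under 0.05, 11 were higher and 5 lower, and with DESeq2 9 and 1. The 9 were EPCAM, ICAM1, MARVELD3, CRB3, DSC2, PKP2, CLDN12, CLDN1 and DSP, and all but EPCAM rose by less than 2-fold. Without R3, 11 were higher and 7 lower, the lower ones including the claudins CLDN2 (-2.10), CLDN7 (-0.90), CLDN3 (-0.45) and CLDN4 (-0.33) and also CDH1. Of 12 tested keratins, KRT15 (1.13 ± 0.13) and KRT81 (0.45) rose, and without R3 9 of 13 were higher and 1 lower. KRT19 held 34616 and 33980.0 normalised counts in R1 and R2 but 22670.0 in R3, within the SP 3 days range of 22512 to 24678. Among 8 EMT transcription factors tested, SNAI1 alone passed the test. It fell by 0.92 on the log2 scale (98.6, 107 and 91.3 to 67.0, 37.6 and 54.1 normalised counts) and stayed above the control, while ZEB1 changed by -0.16 ± 0.11 and ZEB2 by -0.19 ± 0.20.

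Target genes of p53, the transcription factor that halts the cell cycle or starts apoptosis after damage, rose from 3 to 12 days. Of 25 tested, 19 were higher at 12 days and 0 lower (background 4.46% higher and 3.65% lower) in edgeR, with a median of 0.46. At an unadjusted p under 0.05 the numbers were 20 and 0, and with DESeq2 19 and 0. Without R3 the numbers were 20 and 0 (background 13.6% and 14.5%), with GC content and length offsets 18 and 0. At 3 days against the control, 2 of the 25 had been higher and 10 lower at an adjusted p under 0.05.

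CDKN1A, which encodes the cell cycle inhibitor p21, rose at both steps, at 3 days by 0.956 on the log2 scale, under the 2-fold of a call. It held 2341, 2118 and 2434 normalised counts in the control, 4346, 4603 and 4430.3 at SP 3 days and 10904, 10531 and 8012 at SP 12 days (log2 change between the times 1.14 ± 0.11, adjusted p = 1.22e-05). MDM2, which marks p53 for degradation, reversed an early fall, with 1947, 2086 and 1893, then 1454, 1276 and 1271, then 3119.9, 3064 and 2051 (1.04 ± 0.13, adjusted p = 0.000422). In both genes R3 was the lowest of the 3 libraries, and in MDM2 it fell within the control range.

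SPATA18, a mitochondrial quality control gene, rose by 1.20 ± 0.15 after a fall at 3 days, and the death receptor FAS by 1.17 ± 0.18, to 415, 436 and 251 normalised counts from 147, 177 and 164. TP53I3 and GDF15 recovered part of an early fall (0.68 and 0.52). BBC3 and PLK2 were at -0.06 ± 0.10 and 0.01 ± 0.08. Exons of FAS and MDM2 share 2065 and 1224 bases with other genes.

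**Figure D1:**
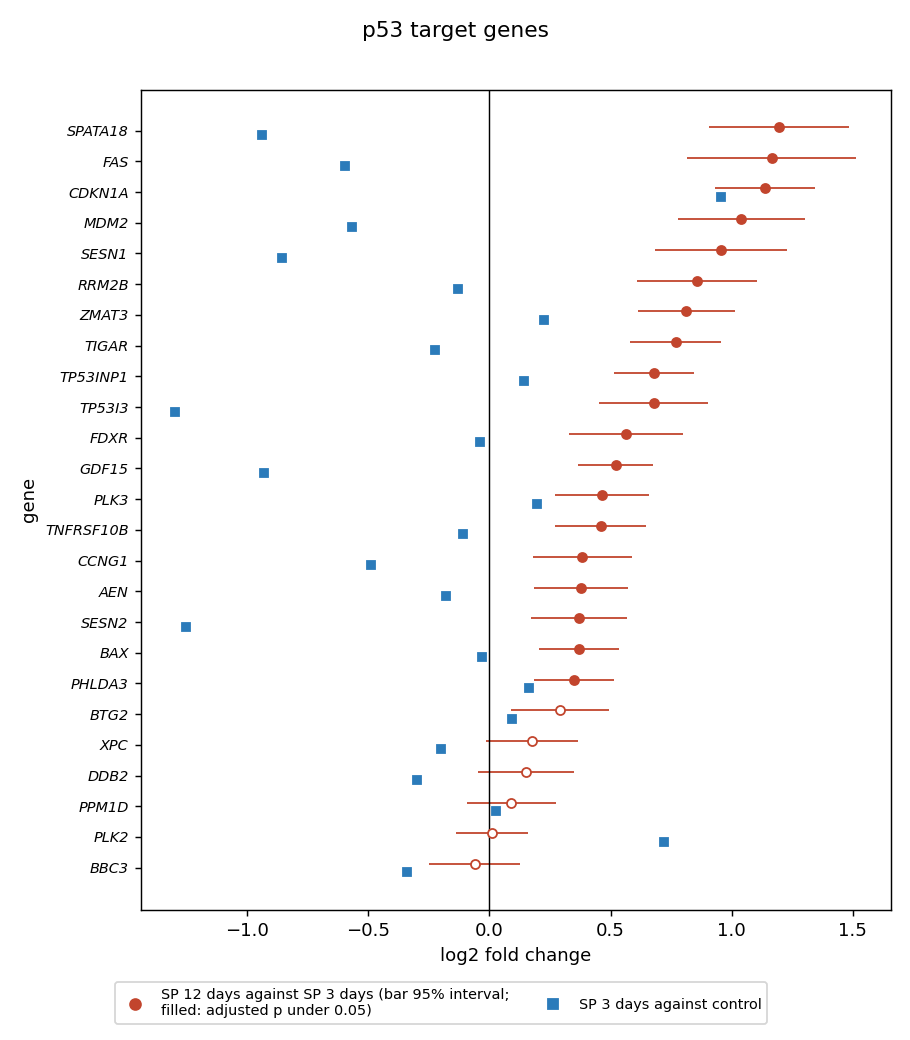
Log2 fold changes of the 25 tested p53 target genes (vertical axis, ordered) for SP 12 days against SP 3 days (red circles with bars for the 95% interval, filled at an adjusted p under 0.05) and for SP 3 days against the control (blue squares). The 19 filled circles all lie to the right of 0, while 10 of the genes had been lower than the control at 3 days.

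Zinc finger genes of chromosome 19, which encode repressors of repeat elements and of other genes and lie in clusters of similar copies, were more often higher than lower at 12 days. Of 190 tested, 26 were higher at 12 days and 1 lower, with a median of 0.17, against 7 higher and 5 lower of 214 ZNF genes on other chromosomes and 39 higher and 47 lower of 1053 other genes on chromosome 19. Over all genes tested 4.46% were higher and 3.65% lower. At 3 days against the control, 67 of the 190 had already been higher and 25 lower at an adjusted p under 0.05 (median 0.18). The numbers at 3 days were 27 and 59 of the 214 (median -0.16) and 376 and 204 of the 1053 (median 0.09). ZNF91 (chromosome 19, 23304991 to 23395471), a repressor of SVA retrotransposons, held 10.3, 7.88 and 2.12 normalised counts in the control, 32.9, 17.5 and 30.1 at SP 3 days and 153, 163 and 181 at SP 12 days (log2 change between the times 2.62 ± 0.24, adjusted p = 1.22e-05). ZNF736 of chromosome 7, which shares 828 bases of exons with another gene, rose by 2.47 ± 0.23 from 24.1, 15.3 and 22.6 to 110.2, 117 and 119. Copies in these clusters are similar, and how reads that fit several of them were counted is not given in the sources used here. Base composition moved with the result: the median GC content was 42.6% in the chromosome 19 ZNF genes, 43.3% in all genes higher at 12 days, 55.0% in those lower and 48.6% over all genes tested. With GC content and length offsets the ZNF numbers were 23 higher and 3 lower. Without R3 they were 44 higher and 11 lower of 191, against 13.6% and 14.5% of all genes tested.

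DHRS2, a short-chain dehydrogenase known to respond to histone deacetylase inhibitors, is an early rise that faded. It held 30.1, 28.1 and 31.9 normalised counts in the control, 402, 427 and 441 at SP 3 days and 112, 119 and 105 at SP 12 days. The 3 groups lay far apart, with 12 days in between (log2 change between the times -1.92 ± 0.11, adjusted p = 1.27e-07).

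CRIM1, a membrane protein that binds BMPs, returned to the control level. It held 14125, 13555 and 14030.0 normalised counts at SP 3 days and 7685, 7554 and 8152 at SP 12 days, beside 7887, 8511 and 8117 in the control. Its fall was -0.83 ± 0.08 (adjusted p = 1.22e-05), and at 12 days it differed from the control by -0.07 (adjusted p = 0.487).

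STAC2, an adaptor of calcium channels, was at 2.58, 4.50 and 5.31 normalised counts in the control, 435, 420.4 and 433 at SP 3 days and 108, 90.5 and 220.5 at SP 12 days (-1.60 ± 0.26, adjusted p = 0.00492, R3 between the times). GALR2, a galanin receptor, fell by 1.34 on the log2 scale to 72.7, 47.5 and 87.5 from 164, 226 and 138. Of 31 tested mesenchymal and TGF-beta target genes 4 were higher and 7 lower at 12 days (median -0.04, background 4.46% and 3.65%). Without R3 8 were higher and 9 lower (background 13.6% and 14.5%). Among those lower, COL1A1 fell by 0.74, COL5A1 by 0.57 and COL4A2 by 0.55 on the log2 scale, and all 3 stayed above the control.

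SUSD2, a membrane protein with a sushi domain, went from 400.3, 367 and 483 in the control to 689, 739 and 783 and then to 235, 284 and 324, so that its 12 days libraries lay below the control (-1.38 ± 0.13, adjusted p = 1.13e-05). ANPEP, the membrane peptidase aminopeptidase N, fell at both steps without overlap, from 649, 601 and 743 to 419, 382 and 448 and then to 103, 87.8 and 135 (-1.93 ± 0.14, adjusted p = 1.96e-06). ST6GAL2, a sialyltransferase, fell further from 158, 177 and 189 to 43.2, 56.5 and 82.8, having been at 1278 to 1452 in the control.

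The aldo-keto reductases AKR1C1, AKR1C2 and AKR1C3, enzymes of steroid and aldehyde reduction under NRF2 that A549 holds at high levels, deepened an early fall by 0.77, 0.80 and 0.49 on the log2 scale. AKR1C2 held 16539, 16713 and 17444 normalised counts at SP 3 days and 9409, 9368 and 10264 at SP 12 days, with 40231 to 42364 in the control. These genes are close copies, and reads may have been split between them. Other members of the list did not follow: of 31 tested NRF2 targets and aldo-keto reductases 3 were higher and 4 lower, and 10 and 6 without R3. The backgrounds were 4.46% and 3.65%, and 13.6% and 14.5% without R3. OSGIN1 recovered by 0.61. ALDH3A1, an aldehyde dehydrogenase, recovered part of a deep fall, from 5435, 5901 and 6038 at SP 3 days to 13897, 16496 and 12137 at SP 12 days, with 30699 to 39208 in the control (1.29 ± 0.12, adjusted p = 1.13e-05).

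Of 29 tested genes of the ATF4 and unfolded protein responses, 20 had been lower than the control at an adjusted p under 0.05 by day 3. From then to 12 days 5 rose and 1, the lipoprotein receptor VLDLR, fell (median 0.03, background 4.46% and 3.65%). Without R3 11 rose and 5 fell (background 13.6% and 14.5%). The same backgrounds apply to the histone and chemokine lists that follow. PSAT1 of serine synthesis and MTHFD2 of mitochondrial folate metabolism regained 0.62 and 0.41, and ATF3 rose by 0.78 from an early rise. Of 18 histone genes, 5 were higher and 2 lower, and 6 and 2 of 19 without R3, H2BC12 with 295, 326 and 316 at SP 3 days and 574, 589.8 and 447 at SP 12 days against 638 to 789.9 in the control. Of 23 chemokine, cytokine and NF-kB response genes 8 were higher and 2 lower (background 4.46% and 3.65%), and 14 and 4 of 24 without R3. Among them TNFAIP3 and RELB, parts of the NF-kB circuit, rose by 1.02 ± 0.13 and 0.87 ± 0.11, and the chemokine CXCL8 by 0.76. IL32 held 47.1, 52.5 and 47.3 at SP 3 days and 110.2, 119 and 85.2 at SP 12 days, and CSF1 fell by 0.62.

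Of 35 mitosis genes 0 passed an adjusted p of 0.05 in edgeR in either direction (0 higher and 1 lower at an unadjusted p under 0.05, 0 and 0 with DESeq2, median -0.23). Without R3, 3 were higher and the median was 0.08. Of 35 DNA replication genes 1, the licensing factor CDT1, was lower (-0.51), near the share over all genes tested. Without R3 6 were higher and 1 lower, with the median going from -0.12 to 0.14. The background for the lists of this paragraph was 4.46% higher and 3.65% lower, and 13.6% and 14.5% without R3. Of 28 genes of cholesterol and fatty acid synthesis 4 were higher and 2 lower, with MSMO1 (0.82) among the higher, and 12 and 2 without R3 (median 0.01, and 0.15 without R3).

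**Figure D2:**
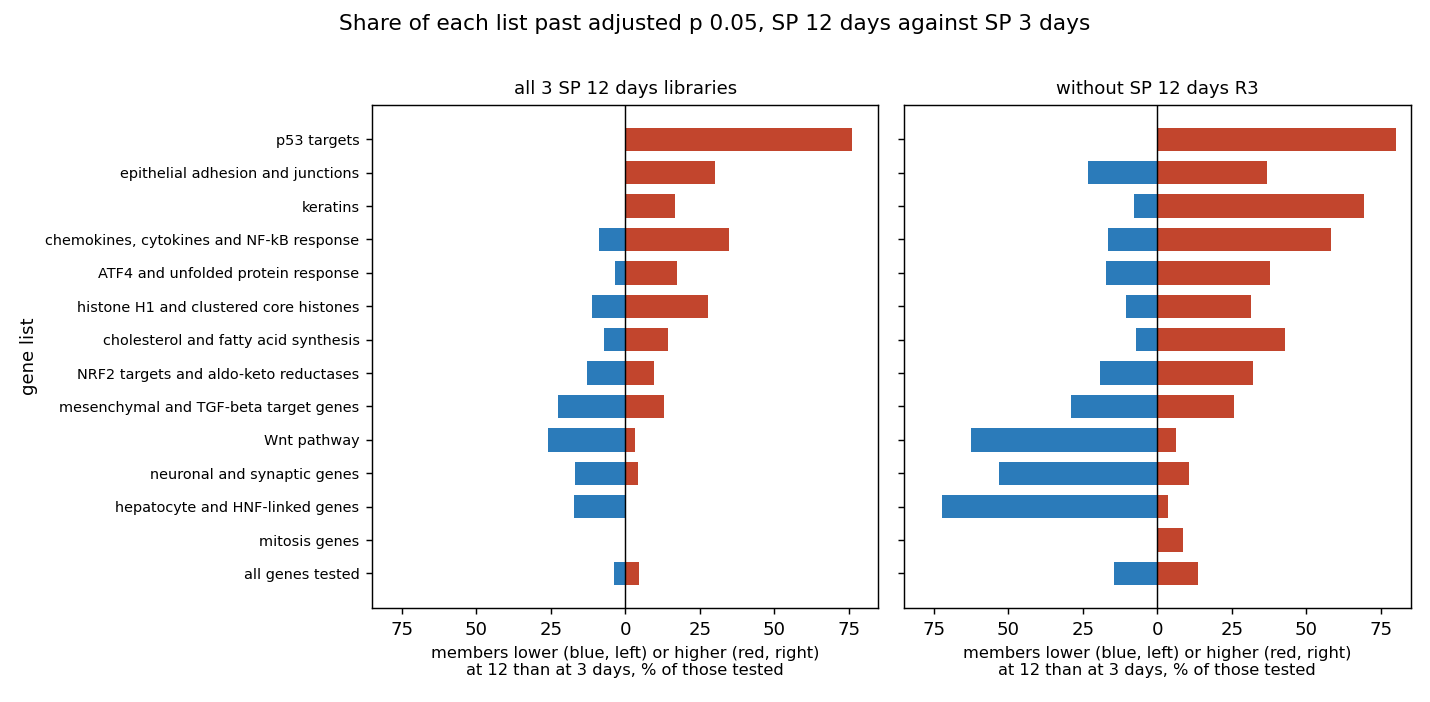
Share of the tested members of 13 gene lists and of all genes tested (bottom bar) that were lower (blue, left) or higher (red, right) at SP 12 days than at SP 3 days at an adjusted p under 0.05, with all libraries and without SP 12 days R3. The p53 targets were one-sided in both panels. The Wnt, neuronal and hepatocyte lists gained most of their lower members when R3 was left out. Over all genes tested the lower share went from 3.65% to 14.5%.

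The numbers in some groups of genes changed when R3 was left out, as they did over all genes tested. Over all genes tested, 4.46% were higher and 3.65% lower with R3, and 13.6% and 14.5% without R3. Of 29 tested hepatocyte and HNF-linked genes, which A549 expresses, 0 were higher and 5 lower at 12 days in edgeR (median -0.42; 1 and 11 at an unadjusted p under 0.05, 0 and 7 with DESeq2), and without R3 1 was higher and 21 lower (median -0.94). TM4SF4, CDH17, CPS1 and AGT fell by 1.08, 0.84, 0.82 and 1.35, and in each the R3 value was nearest to SP 3 days, as in CPS1 with 605, 598 and 1019 after 1261, 1255 and 1428. Of 31 Wnt pathway genes 1 was higher and 8 lower (2 and 20 of 32 without R3). WNT5A fell to 34.1, 31.4 and 32.6 from 59.1, 77.7 and 64.5, the secreted antagonist DKK1 fell by 0.71, and WNT9A rose by 0.70.

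Of 47 neuronal and synaptic genes, 28 of which had risen at 3 days, 2 were higher and 8 lower, and 5 and 25 without R3. The backgrounds were 4.46% and 3.65%, and 13.6% and 14.5% without R3. NEFL, the light neurofilament, deepened an early rise from 301, 277 and 260.0 to 977, 974 and 687 (1.65 ± 0.14, adjusted p = 4.79e-06), and the secreted neuropeptide precursor VGF from 188, 209 and 186 to 697, 661 and 400.3 (1.59 ± 0.17). STMN3, a microtubule regulator, fell from 786, 809 and 758 to 283, 263 and 573 (-1.06 ± 0.26). So the members with the largest changes moved in opposite directions. Exons of NEFL share 781 bases with another gene.

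R3 lay between SP 3 days and the other SP 12 days libraries in 220 of 299 genes called without R3, which were chosen in R1 and R2. Over the 103 genes called higher without R3 that were tested with all libraries, R3 had covered a median of 71.9% of the log2 distance from the SP 3 days mean to the mean of R1 and R2. Over the 196 called lower it had covered 25.8%, and in 41 of them R3 lay on the other side of SP 3 days. That choice favours a smaller change in R3. In the 31 genes called both with and without R3, R3 lay beyond the mean of R1 and R2 in 16 and between in 15, with a median of 100.1%. A call with all libraries favours genes in which R3 lies near R1 and R2, so this choice acts the other way. TXNIP, an arrestin-like regulator of glucose uptake whose transcript follows glucose, held 647, 674 and 608 normalised counts at SP 3 days, 86.3 and 49.3 in R1 and R2 and 579 in R3. With R3 it changed by -1.39 ± 0.79 (adjusted p = 0.357), and without R3 by -3.29 (adjusted p = 4.61e-13). SMOC1, a secreted calcium-binding protein, had 19.3 and 11.7 in R1 and R2 and 82.8 in R3 after 139, 159.8 and 179. The mucin-like FCGBP had 53.4, 58.3 and 199 after 393, 449 and 554. BST2, which tethers viruses to the cell surface, had 19.3, 13.4 and 80.4 after 86.5, 116 and 116. In all 4 R3 was the library nearest to SP 3 days.

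**Figure D3:**
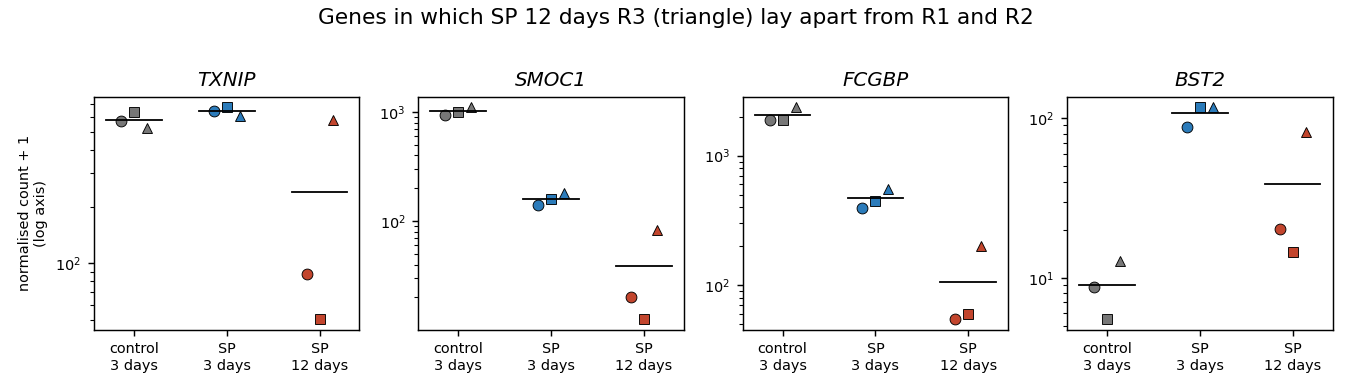
Normalised counts (log axis, 1 added) of 4 genes, the largest falls among those called only without SP 12 days R3 that had a mean of at least 100 normalised counts in either SP group and no overlap when R3 was left out, in the control (grey), SP 3 days (blue) and SP 12 days (red) libraries, with circles for R1, squares for R2, triangles for R3 and a line at the group mean. In each gene R3 of SP 12 days lay above R1 and R2, and in TXNIP it was near the SP 3 days level.

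**Figure D4:**
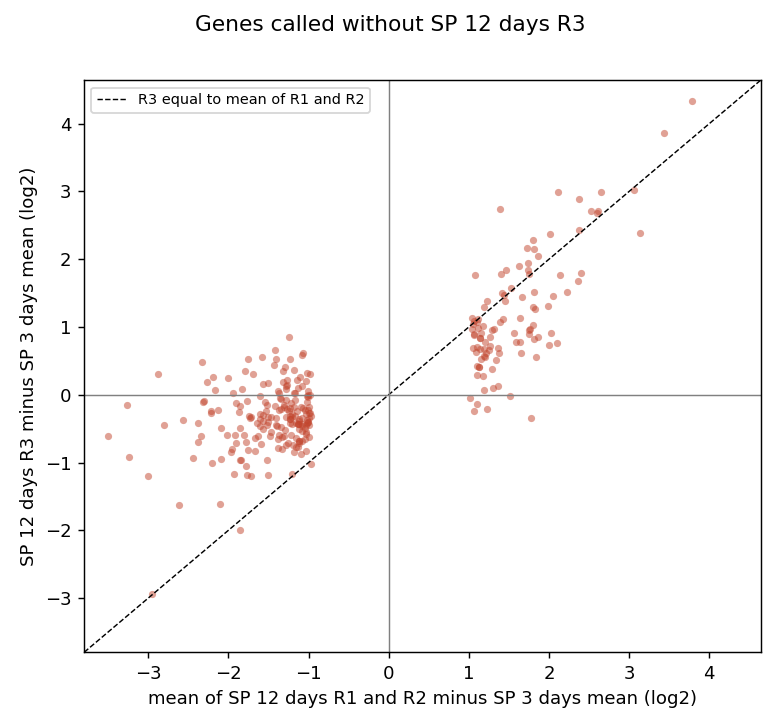
Each point is a gene called without SP 12 days R3 (299 genes), with the mean of R1 and R2 (horizontal) and R3 (vertical) as log2 differences from the SP 3 days mean. Most of the 196 falls lie well above the dashed line of equal change, while the 103 rises lie nearer to it.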

How the data were processed

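RNA-seq libraries of A549 cells were compared from a table of read counts deposited by the authors, raw counts per Ensembl gene of control 3 days, SP 3 days and SP 12 days (3 libraries each). A second deposited table of counts (control 24 h, SP 3 h, SP 24 h) served only to choose early genes. The authors used 5 mM SP, the NEBNext Ultra RNA kit, paired-end NovaSeq sequencing, STAR 2.7.9a, GRCh38 and featureCounts. Whether strand was used, and how multiply mapped reads were handled, is not given in the sources used here. Both bear on overlapping genes and close copies. The submitters' notes name DESeq2 1.36.0 for their tests.

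Testing used edgeR 4.0.16 under R 4.3.3, with filterByExpr (minimum count 10), TMM factors and a robust quasi-likelihood fit of all 9 libraries without a replicate block, with Benjamini-Hochberg adjustment over the 17775 genes tested. Normalised counts are counts scaled by TMM to the mean library size. The common biological coefficient of variation was 0.100. Alternatives were DESeq2 1.42.0, other size factors, no expression filter, GC content and length offsets, a replicate block, the SP libraries alone and leaving out each library. Depth was 15425281 to 21992046 counts per library, which gave a median SE of 0.13 on the log2 scale. Positions and GC content were taken from GENCODE 44 (61369 of 61541 genes matched). The fit was tested on simulated data.

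Named genes were called genes with a mean of at least 100 normalised counts in either SP group and no overlap, at most 12 in each direction, the largest 4 of each class, the 2 to 4 list members with the largest changes, genes the paper names and the largest calls found without R3. Some further list members stand beside their list's count. The comparison, the 46 gene lists and the rule were chosen with earlier results of these data known. Results for some genes are not reported here.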

Additional observations from a re-analysis of the deposited data

Results flagged for a closer look

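In 24 genes the SP libraries at 3 and at 12 days differed from the control in opposite directions, each at an adjusted p under 0.05 from edgeR, with the difference between the times also under 0.05. In 9 of them the difference was at least 2-fold. Lower than the control at 3 days and higher at 12 days were CAPN8 (a calpain of the gut lining, 3.07 on the log2 scale between the times), TLR4 (the receptor of bacterial lipopolysaccharide, 1.64), FAS (1.17), MDM2 (1.04) and EHF (1.04). Higher at 3 days and lower at 12 days were STING1 (the adaptor of cytosolic DNA sensing, -1.14), PTCH1 (the receptor of hedgehog ligands, -1.15), CDH4 (R-cadherin, -1.36) and SUSD2 (-1.38). All 9 kept an adjusted p under 0.05 between the times when any 1 library was left out. CAPN8 held 4.38 to 7.66 normalised counts at SP 3 days and 45.4 to 64.5 at SP 12 days, so its size rests on few reads. These values share the 3 control libraries and the control was taken at 3 days.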

How the results depend on the processing

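Against 32 genes called between 12 and 3 days, DESeq2 called 95, no expression filter 167 (111 higher, 56 lower), GC content and length offsets 21, the 6 SP libraries alone 5, and an adjusted p under 0.05 with 2-fold 252. Leaving out 1 library gave 6 to 300. It was 19 and 21 without control R1 or R3, 9, 6 and 7 without SP 3 days R1, R2 or R3, 15 without SP 12 days R1 and 300 without SP 12 days R3. The 1440 genes at an adjusted p under 0.05 became 933 in the 6 SP libraries alone and 556 to 5073 with 1 library left out (707, 628 and 603 without each SP 3 days library, 556, 909 and 5073 without each SP 12 days library). Replicate numbers were not taken as pairs in the first table, since residuals of same-numbered SP libraries correlated by 0.05, 0.02 and 0.07. With a replicate block 15 genes were called, and 11 with GC content and length offsets and the block. Early changes that deepened (129) came to 210 without a filter, 327 when chosen at 12 days and 70 to 279 with 1 library left out (70, 73 and 70 without each SP 3 days library, 83 without SP 12 days R1, 279 without R3). Those that faded (196) came to 316, 97 and 82 to 714 under the same alternatives (103, 88 and 89 without each SP 3 days library, 82, 124 and 714 without each SP 12 days library), and GC content and length offsets gave 176. Late changes (34) came to 95 without a filter, 22 with the block, 18 with the block and offsets and 15 to 83 with 1 library left out (18, 19 and 15 without each control library, 17 without SP 12 days R1). Of genes called at 24 h, 5 moved further and 28 back. The numbers were 58 and 227 with DESeq2, 68 and 233 without a filter, 25 and 69 with offsets, 25 and 67 with offsets and block, 0 and 1 with the block, and 3 to 11 and 15 to 66 with 1 library left out. With the choice at 24 h changed alone, alternatives added after seeing the data, they were 55 and 196 (DESeq2), 16 and 77 (offsets) and 0 and 0 (block). The causes were not tested, and some alternatives hold fewer libraries or another set of genes. In 2443 refits of 153 named genes, 0 reversed, 318 lost and 14 gained an adjusted p under 0.05. Only genes past an adjusted p of 0.05 in the main fit could count as reversed. The refits share most or all libraries, so few reversals were possible. With 15425281 to 21992046 reads a library, genes of few reads such as ZNF736 in the control are measured with less precision.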

Other observations

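Some lists not described above also held changes between 3 and 12 days. Over all genes tested 4.46% were higher and 3.65% lower, and 13.6% and 14.5% without R3. Of 33 interferon-stimulated genes 4 were higher and 2 lower (5 and 7 without R3), and of 24 genes of the histone acetylation machinery 2 were lower, the deacetylases HDAC5 (-0.63) and HDAC6 (-0.37), with 2 higher and 4 lower without R3. HLA-DMA (-0.78) was the 1 of 24 antigen presentation genes that passed, and ACSM3 (-0.57) the 1 of 15 genes of propionyl-CoA metabolism. A single passing gene in lists of 24 and 15 is near the share over all genes tested. Without R3 these lists had 2 higher and 3 lower, and 1 higher and 4 lower. SLC16A1, the monocarboxylate transporter that carries propionate, rose by 0.28 ± 0.08 (adjusted p = 0.0367), and its chaperone BSG fell by 0.36 on the log2 scale. Of 32 glycolysis and hypoxia genes 3 were higher and 6 lower (5 and 7 without R3), among them HK2 (0.78), ALDOC (-0.75) and the carbonic anhydrases CA9 (-1.66) and CA12 (-0.78). Among the 34 late changes, STARD8 and ADCY5 fell from 111 to 134 and 98.6 to 109 normalised counts at SP 3 days to 50.2 to 70.0 and 40.3 to 64.5 at SP 12 days.

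MARCOL, a gene of unknown function, held 1.07 to 5.47 normalised counts in the SP 3 days libraries and 55.7, 47.5 and 70.0 at SP 12 days.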
